A study of Mus musculus with 54 samples.

Results

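The replication-dependent histone genes supply the canonical H1, H2A, H2B, H3 and H4 proteins that package newly copied DNA, and they lie in dense groups on a few chromosomes. Members were all genes whose name in the deposited peak annotation begins with Hist1h, Hist2h, Hist3h or Hist4h, in the list of accessible regions, of Fli1 peaks or of Ikzf1 peaks. There were 55 such genes of the 17799 genes named in the 3 lists: 4 H1, 12 H2A, 17 H2B, 10 H3 and 12 H4 genes. Among the 65093 accessible regions, 116 were named for a member, 65 of them with their centre within 1 kb of the gene's start and 51 farther away.

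The study compared the chromatin of mouse B-cell progenitors that carried or lacked the factors Ebf1 or E2A, in 54 samples. Accessibility (omni-ATAC) and promoter contacts (H3K4me3 PLAC-seq, which captures contacts of chromatin carrying that promoter mark) came from 230-238 cells, an Abelson-transformed progenitor B line, each as 1 list from 2 labelled samples. Fli1 and Ikzf1 peaks came from 1 Wt library each of fetal liver progenitors, labelled ProB and of C57BL6/J background. The region tables held fetal liver progenitors that were Wt, Ebf1-KO or E2A-KO, and Ebf1-KO cells carrying the pMiG-Ebf1ER retroviral vector after 0, 6, 24 and 72 h of 4OHT, the ligand that activates the Ebf1ER protein. All fetal liver cells were expanded on OP9 stroma with the ligands of KIT and FLT3 and with interleukin-7, whatever their genotype. The line is a single transformed line, so accessibility and contacts were measured in other cells than Fli1 and Ikzf1 binding. Replicates are labelled for some assays, but the deposited lists and columns pool them or hold 1 of them: the ATAC, H3K4me3 and H3K27me3 columns are pools, while those of PolII, H3K4me2, H3K27ac and BRG1 hold a single library per genotype. No spread between samples could therefore be measured, each comparison is of these columns rather than of the genotypes in general, and the intervals below cover counting error or the spread over genes only.

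Replication-dependent histone genes are short, mostly lack introns, and are transcribed mainly while DNA is being copied, in nuclear bodies organised by NPAT, a target of cyclin E and CDK2. Their mRNAs end in a stem-loop bound by SLBP instead of a poly(A) tail. Many H2A and H2B genes are arranged head to head and share the sequence between their starts, where octamer elements bound by POU2F1 act on H2B. Fli1 is a transcription factor of the Ets family and Ikzf1 (Ikaros) is a zinc-finger factor of lymphoid development.

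The promoters below are shown because an Ikzf1 peak (Hist1h4i, Hist1h4k), a Fli1 peak (Hist1h3h) or both (Hist2h2ab) lay over them, and because Hist1h2bj and Hist1h2bk share the space with a divergent H2A gene. They are RefSeq sequences of GRCm38.p6 (mm10), 5′ to 3′ on the strand of the gene, ending at the base before its start. Hist1h4i is chr13:22041363-22041612 on the minus strand, Hist1h4k is chr13:21750554-21750803 on the minus strand, and Hist1h3h is chr13:21717378-21717627 on the plus strand. Hist2h2ab is chr3:96219635-96219884, Hist1h2bj is chr13:22042948-22043197, reaching the start of Hist1h2ag, and Hist1h2bk is chr13:22035644-22035820, cut at the start of Hist1h2ah, all on the plus strand. Capitals mark motif matches on either strand. The motifs are the core promoter element TATAAA, the box CCAAT, which also appears as ATTGG, the octamer ATGCAAAT and the Ikaros core TGGGAA.
Hist1h4i: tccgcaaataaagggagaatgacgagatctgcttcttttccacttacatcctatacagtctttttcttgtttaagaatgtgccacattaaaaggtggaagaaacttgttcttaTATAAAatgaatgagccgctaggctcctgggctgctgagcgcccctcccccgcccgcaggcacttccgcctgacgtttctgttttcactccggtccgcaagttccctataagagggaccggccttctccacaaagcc
Hist1h4k: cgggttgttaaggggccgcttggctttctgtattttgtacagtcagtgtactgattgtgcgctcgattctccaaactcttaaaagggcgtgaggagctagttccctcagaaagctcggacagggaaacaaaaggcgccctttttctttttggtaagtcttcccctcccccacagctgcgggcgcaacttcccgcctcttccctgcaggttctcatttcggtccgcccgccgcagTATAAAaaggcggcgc
Hist1h3h: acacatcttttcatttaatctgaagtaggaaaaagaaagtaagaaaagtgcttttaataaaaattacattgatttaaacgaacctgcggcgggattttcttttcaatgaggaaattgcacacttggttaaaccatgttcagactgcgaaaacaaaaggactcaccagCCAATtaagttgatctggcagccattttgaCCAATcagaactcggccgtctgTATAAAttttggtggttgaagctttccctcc
Hist2h2ab: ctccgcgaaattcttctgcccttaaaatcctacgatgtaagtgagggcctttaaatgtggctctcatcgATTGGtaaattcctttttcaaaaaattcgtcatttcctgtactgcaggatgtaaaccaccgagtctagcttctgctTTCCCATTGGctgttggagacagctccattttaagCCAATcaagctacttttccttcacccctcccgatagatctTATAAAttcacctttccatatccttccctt
Hist1h2bj: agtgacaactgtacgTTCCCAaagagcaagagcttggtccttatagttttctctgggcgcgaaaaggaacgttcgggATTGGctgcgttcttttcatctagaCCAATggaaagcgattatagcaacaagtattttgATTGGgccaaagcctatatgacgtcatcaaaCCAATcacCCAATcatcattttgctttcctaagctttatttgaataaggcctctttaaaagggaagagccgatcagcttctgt
Hist1h2bk: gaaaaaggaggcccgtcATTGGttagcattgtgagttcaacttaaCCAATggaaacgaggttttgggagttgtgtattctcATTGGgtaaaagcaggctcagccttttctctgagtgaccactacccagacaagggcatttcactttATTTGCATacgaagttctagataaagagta

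In these sequences TATAAA stood 30 bases before the start of Hist2h2ab and 31 before that of Hist1h3h, 16 before that of Hist1h4k and 137 before that of Hist1h4i. In Hist2h2ab the TTCCCA match shared its last base with an ATTGG match. The octamer of Hist1h2bk lay 30 bases before its start. The space shared by Hist1h2ag and Hist1h2bj held 5 CCAAT matches, and neither H4 promoter held one.

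CCAAT and the octamer divided the histone classes. Of 70 RefSeq genes with an older histone symbol, 62 had a promoter entry, 55 of the 70 being named in the lists. CCAAT was found within 250 bases before the start in 51 of these 62 genes (82.3%), against 37.5% of 27025 RefSeq genes. It was present in 6 of 6 H1, 18 of 18 H2A, 16 of 16 H2B and 8 of 10 H3 genes, but in 3 of 12 H4 genes. The octamer was found in 14 of 62 (22.6%) against 1.81%, in 7 of 18 H2A and 7 of 16 H2B genes and in no H1, H3 or H4 gene. Head-to-head H2A and H2B genes share much of the searched sequence. For every motif here a single site can therefore count for both partners, and their counts are not independent. TATAAA was found in 29 of 62 (46.8%) against 14.3%, and the shorter TATAA, added after the data were seen, in 41 (66.1%) against 25.8%. The Ets core CCGGAAG was in 0 of 62 histone promoters against 7.83% of all, and the shorter CGGAAG, also added, in 7 (11.3%) against 15.3%. TGGGAA was in 12 of 62 (19.4%) against 24.1%, in 5 H2A, 5 H2B and 2 H3 genes and in no H4 gene. Among accessible members with a promoter entry, CCGGAAG was absent from the 8 genes with a Fli1 peak and from the 34 without one. As 0 of 62 held it, that split was fixed beforehand. TGGGAA stood in 1 of 6 genes with an Ikzf1 peak and 6 of 36 without. Some peaks were centred outside the searched bases, as for Fli1 883 bases past the Hist1h1c start and Ikzf1 752 past that of Hist1h4c. Motifs under the peaks were therefore not tested.

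Most histone promoters were accessible in the 230-238 line. Since members had to be named in one of the lists, their share is a description of the named genes. It depends on which genes are counted, as given below. An accessible region had its centre within 1 kb of the start of 48 of 55 members, 87.3% (95% Wilson interval 76.0 to 93.7), against 52.9% of all 17799 genes. These are the accessible promoters referred to below. All 10 H3 and all 12 H4 members had one, as did 3 of 4 H1, 9 of 12 H2A and 14 of 17 H2B members. The 7 without were Hist1h1e, Hist1h2ac, Hist1h2ah, Hist1h2al, Hist1h2bl, Hist1h2bq and Hist3h2ba. For 4 of these, Hist1h1e, Hist1h2ac, Hist1h2ah and Hist1h2bl, the RefSeq start lay inside an accessible region that the annotation names for a neighbouring histone gene. Counted by RefSeq starts, 55 of 62 histone genes (88.7%) lay within 1 kb of an accessible region against 39.4% of all, and 51 of 62 (82.3%) had the start inside one against 35.1%. A window of 2 kb gave 49 of 55 members (89.1%) against 56.8%, and 500 bp gave 41 of 55 (74.5%) against 48.5%. With all 70 RefSeq histone genes as the denominator, the 48 genes were 68.6%. That count takes every gene not named in the lists as not accessible. Of 14 such genes with a promoter entry, 6 had their start inside an accessible region.

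The starts outside any accessible region included those of germ-cell variants. Hist1h1t, the testis H1, lay 1.65 kb from the nearest region, while Hist1h2ba and Hist1h2aa, a testis H2B and H2A pair, lay 0.269 and 0.55 kb away. Hist1h2ba still counts among the 48 accessible promoters, through a region centred 371 bases from its start. The starts of Hist1h1a, Hist2h3c1 and Hist3h2ba lay 0.822, 0.433 and 4.84 kb from the nearest region. Hist1h2bq, Hist1h2ao and Hist1h4m lay 18.5 to 20.0 kb from the nearest region, and Hist1h2ap and Hist1h2br 1.24 and 1.51 kb. The 300-base RefSeq promoters of Hist1h2bq and Hist1h2br were identical at 100% of bases, and the name of the accessible list mentions a mapping-quality limit; its part in these absences was not tested.

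Open chromatin covered whole genes. Regions near a member's start had a median width of 956 bp, close to the 1024 bp of all regions near a start, but histone genes are short. Of 49 histone genes under 1000 bp with their start in an accessible region, 38 (77.6%) were accessible over at least 90% of their length, with a median of 100%. The same held for 66 of all 154 such genes (42.9%), with a median of 84.9%, a set that includes the 49 histone genes and their 38. By class, the median width was 1500 bp for H1 and 1385.5 bp for H2B, against 720 bp for H2A, 638 bp for H3 and 845 bp for H4. These medians count every region near a start, including small ones beside a wider region of the same gene. A region shared by a divergent pair counts for 1 partner only. The region of 1577 bp over the starts of Hist1h2ag and Hist1h2bj is named for Hist1h2bj, and 236 bp for Hist1h2ag. The H2A and H2B medians therefore depend on this naming.

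A single region often spanned a head-to-head pair. Among histone genes with a RefSeq promoter entry, 10 H2A and H2B pairs had divergent starts 164 to 281 bases apart (median 204.5). Genes without an entry, such as Hist1h2bc and Hist2h2be, could not be paired. In 7 of the 10 (70%) a single accessible region, of median width 1515 bp, covered both starts, close to the 70.5% of 1676 divergent RefSeq pairs within 400 bases. The 3 pairs without such a region were Hist1h2bq with Hist1h2ao, Hist1h2ap with Hist1h2br, and the testis pair Hist1h2ba with Hist1h2aa. The annotation gives each shared region to a single partner, as at Hist1h2ai for the pair with Hist1h2bl.

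The accessible regions fell into 3 main groups, split where neighbours lay over 200 kb apart. On chromosome 13 the first group (chr13:21709964-22051733) held 32 regions of 18 genes over 342 kb, and the second (chr13:23516847-23933887) held 55 regions of 27 genes over 417 kb. The chromosome 3 group (chr3:96219214-96278813) held 20 regions of 6 genes within 59.6 kb. Of the rest, 6 regions on chromosome 13 (chr13:51193558-51296195) were named for Hist1h2al but lay away from its start, 2 belonged to Hist4h4 on chromosome 6 and 1 to Hist3h2bb-ps on chromosome 11. The map of these groups shows the regions in clumps separated by stretches without any histone promoter. Other genes with an accessible promoter inside the groups were Hfe, an iron regulator, and Mir1983.

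**Figure D1:**
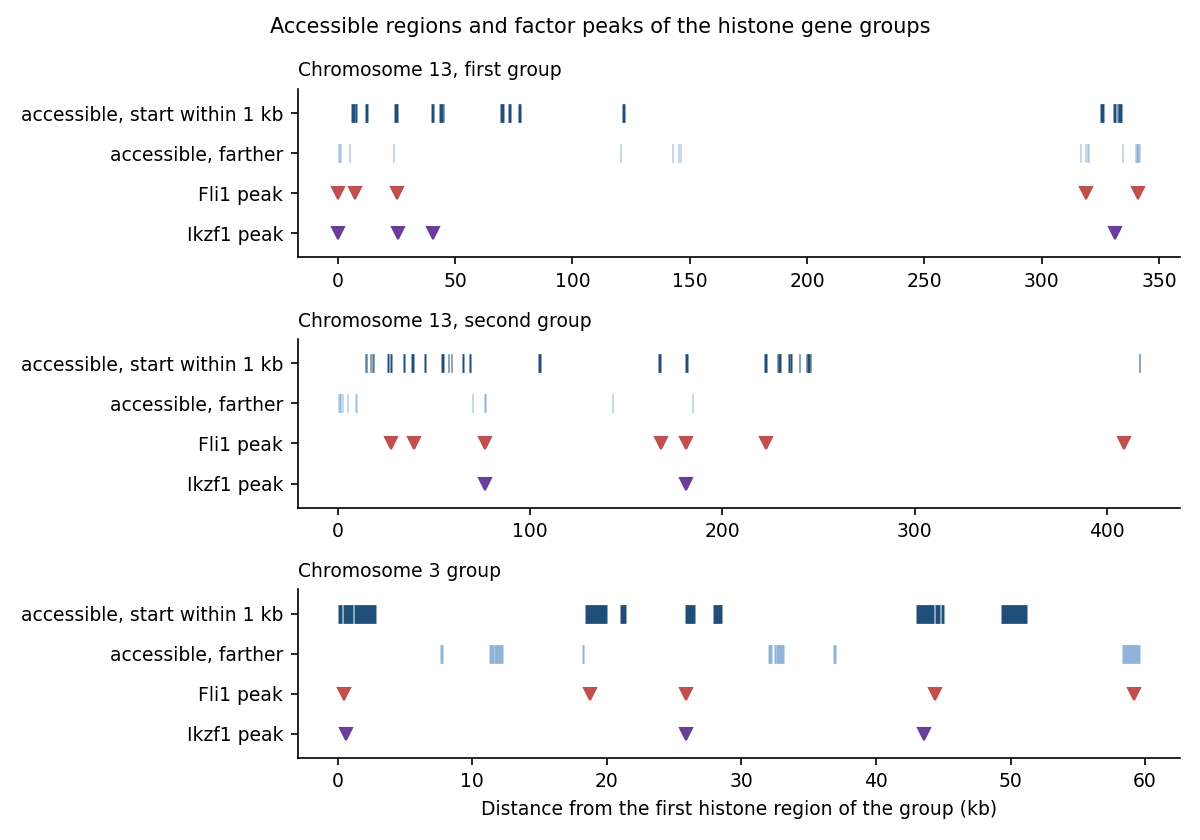
Accessible regions (bars, near a start or farther away) and Fli1 and Ikzf1 peaks (triangles) in the 3 main groups, by distance in kb from the first histone region of each group. The first group has 32 regions over 342 kb with a long gap, the second 55 over 417 kb, and the chromosome 3 group 20 within 59.6 kb.

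Fli1 peaks were sparse at histone promoters. A Fli1 peak overlapped the accessible promoter of 11 of 48 members, 22.9% (13.3 to 36.5), against 73.7% of the 9410 genes with an accessible promoter. The genes, as the annotation names them, were the H1 genes Hist1h1c and Hist1h1d, the H2A genes Hist2h2aa2 and Hist2h2ab, the H2B gene Hist1h2bc, the H3 genes Hist1h3f, Hist1h3h and Hist2h3c2, and the H4 genes Hist1h4c, Hist1h4j and Hist2h4. The region with the Hist2h2aa2 peak holds the RefSeq start of Hist2h2aa1. The region at the RefSeq start of Hist2h2aa2 itself had no peak of either factor. Under all 7 other overlap, window, score and counting rules tried, the histone share was 18.2 to 22.4% and the share over all genes 44.6 to 75.8%. Counting only Fli1 peaks at or above the median score, it was 9 of 48 (18.8%) against 57.0%.

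Where a Fli1 peak was present, its score was in the range of promoter peaks. The 10 Fli1 peaks within 1 kb of a histone start had a median score, as the authors' caller gave it, of 23.1 (range 16.2 to 31.9), against 22.4 over 8143 promoter peaks and 16.7 over all 27261. Hist2h4 (chr3:96263419-96263771, centred 278 bases before the start) scored 31.9 and Hist2h2ab (chr3:96219466-96219818) scored 29.1. Both of the highest Fli1 scores lay away from promoters. A peak 7781 bases past the Hist1h2bj start (chr13:22050835-22051187, intergenic) scored 48.6, above 97.2% of the list. A peak in an intron of the long Hist1h2be transcript (chr13:23593081-23593433) scored 47.6. Of the 18 Fli1 peaks named for members, those at Hist3h2ba (score 17.2, 91 bases past the start) and past Hist1h2ba (score 12.4) lay outside any accessible region.

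Ikzf1 peaks were found at 7 of 48 accessible histone promoters, 14.6% (7.25 to 27.2), against 19.7% of 9410, and the interval includes that background. The 7 were Hist1h4c, Hist1h4i, Hist1h4j, Hist1h4k, Hist2h4, Hist2h2aa2 and Hist2h2ab. As for Fli1, the region named for Hist2h2aa2 is the one that holds the RefSeq start of Hist2h2aa1. Of the 12 H4 promoters 5 carried Ikzf1 and of the 36 others 2 did, a division noticed after the values were seen. Fli1 and Ikzf1 together lay at 5 of 48 promoters against 18.3% of all, and at 5 of the 7 with Ikzf1, where 92.5% of all accessible promoters with Ikzf1 also had Fli1. The exceptions were Hist1h4i and Hist1h4k.

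The Ikzf1 scores at histone promoters had a median of 8.62 (6.66 to 11.4, 7 peaks) against 7.05 over 2115 promoter peaks. Hist1h4i (chr13:22041271-22041455, centred 1 base before the start) scored 11.4, above 91.4% of the 5741 peaks. Hist1h4k (chr13:21750610-21750794) scored 9.80, as did Hist2h4 (chr3:96262705-96262889), whose peak lay 520 bases past the start near the gene's end. The Hist1h4k peak lay wholly within the promoter printed above. The highest Ikzf1 score of the members, 15.3, was in the same Hist1h2be intron (chr13:23593098-23593282) as the strong Fli1 peak.

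Genes that make, process and deposit histones had Fli1 peaks at about the share of all accessible promoters, 73.7%, and no difference between these lists and the histone genes was tested. Of 16 genes for histone mRNA synthesis and processing, 15 had an accessible promoter, 12 of them (80.0%) with Fli1 and 4 with Ikzf1. Npat, the organiser of histone transcription, had a Fli1 score of 51.9. Hinfp, an activator of H4 genes, had 39.1, and Pou2f1, which binds the octamer, had 46.2 with an Ikzf1 score of 10.2. Slbp had 27.6 and 9.01. Casp8ap2, Cpsf3 and Sympk had no Fli1 peak, and Zfp473 had no accessible promoter. Of 8 chaperone genes 6 were accessible, 4 (66.7%) with Fli1 and 2 with Ikzf1, among them the subunits of the replication-coupled assembly factor Chaf1a (Fli1 37.2) and Chaf1b (38.6), while the chaperones Asf1a and Asf1b had neither factor. Of 11 genes of replication-independent variants 8 were accessible, 6 (75%) with Fli1 and 1 with Ikzf1, H3f3a, an H3.3 gene.

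**Figure D2:**
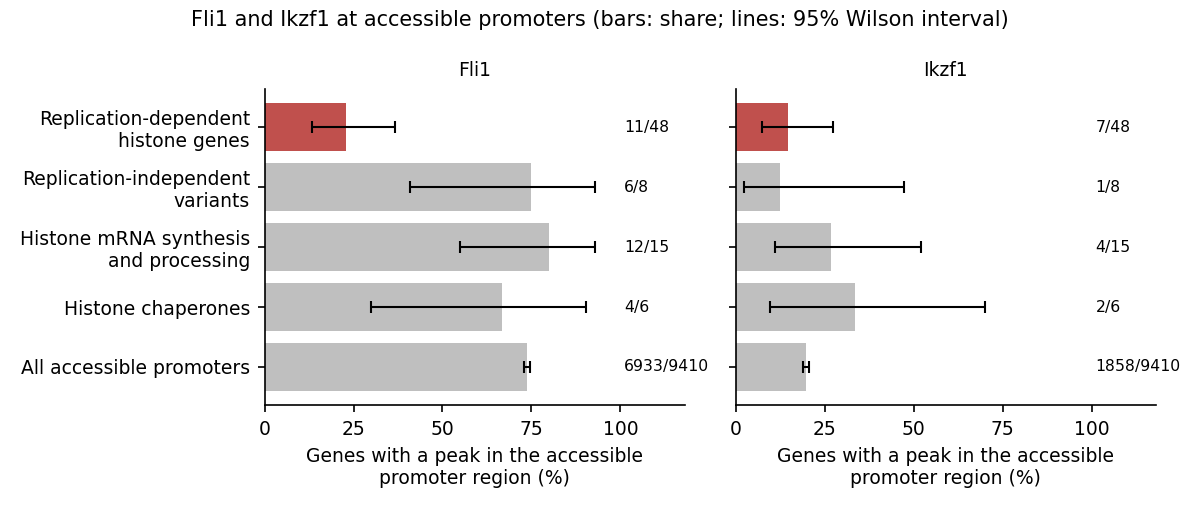
Share of genes with an accessible promoter that carries a Fli1 (left) or Ikzf1 (right) peak, in percent with 95% Wilson intervals and the counts beside each bar. Histone genes stand at 22.9% for Fli1 against 73.7% of all accessible promoters, and at 14.6% against 19.7% for Ikzf1.

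By the marker lists, 9 of 12 B-progenitor genes had an accessible promoter in the line, 0 of 4 T, 0 of 3 stromal and 0 of 2 natural killer genes, 1 of 5 myeloid (Lyz2) and 1 of 3 erythroid genes (Gata1). Over all 17799 named genes, 52.9% had an accessible promoter. Fli1 lay at 2 of the 9 accessible B-progenitor promoters (22.2%), Cd79a and Rag1, against 73.7% of all accessible promoters. A low share of Fli1 was thus not particular to the histone genes.

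Contacts were listed for pairs of 5 kb bins by FitHiChIP, as the file's name gives it, at a q of 0.05 or less, with the contact count of each pair. The list held 69898 interactions, all within a chromosome and 10 to 2985 kb long. Accessible histone promoters occupied 40 bins, 149 interactions touched such a bin and 29 joined 2 of them. A histone bin had a median of 2.5 interactions (range 0 to 14), against 4 over 9617 accessible-promoter bins, and 5 of 40 (12.5%) had none, against 12.6%. With each bin's 2 neighbours included the order turned, with medians of 9.0 and 7, and near contacts had been merged in the deposited list, so that a contact may be listed beside its bin.

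The number of contacts differed between histone bins, with quartiles of 1.75 and 7, much as over all accessible-promoter bins with 2 and 8. The bin of Hist2h2be had 14 interactions, that shared by Hist1h2ag, Hist1h2bj and Hist1h4i had 13, and that of Hist2h2bb had 12. The bins of Hist1h1b, of Hist1h3c and of Hist4h4 with its neighbour H2afj had 11 each. Bins of Hist1h3i, Hist1h4n, Hist1h3e and Hist4h4 alone and a bin shared by Hist1h2bb and Hist1h3c had none.

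The partners of histone promoter bins were tallied beside those of all accessible-promoter bins. Of the 178 interaction ends at histone bins, 58 (32.6%) had another histone promoter as partner and 28 (15.7%) another accessible promoter, which was the partner of 26.7% of all promoter-bin ends. A further 56 (31.5%) met another accessible region, against 29.7%, and 36 (20.2%) met no accessible region, against 43.4%. Any accessible promoter was the partner of 48.3% of histone ends and of 26.8% of 53302 ends at all accessible-promoter bins. Histone promoters lie close together, so pairs within groups are set against promoter pairs at the same distances next. Median distances were 160 and 140 kb, and 24 histone ends (13.5%) spanned over 1 Mb against 1.77%.

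Within the groups, 25 of 236 pairs of histone bins were listed as interacting, 10.6% (7.28 to 15.2). Accessible-promoter bins at the same distances were listed in 15.8% of 36643 pairs, and in 19.4% when weighted to the histone distances, which would give 45.7 pairs. The counts were 4 of 41 pairs in the first chromosome 13 group, 18 of 178 in the second and 3 of 17 on chromosome 3. In all 4 distance classes up to 400 kb the histone share was below that of other promoters, as at 10 to 45 kb with 16.7% against 28.4%. The direction depended on how a contact is counted: with the 2 neighbours of each bin, 56.4% of histone pairs were listed against 45.7%, with any bin pair inside a merged contact 41.1% against 36.0%, and against all bins with an interaction end the background was 6.52%.

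The strongest contacts within groups joined close neighbours. On chromosome 3, a bin named for Hist2h2aa2 and Hist2h3c2 met that of Hist2h4 at 15 kb with 117 contacts (exact Poisson interval 96.8 to 140). The median was 66 for listed promoter pairs at that distance. By RefSeq, the first of these bins holds the starts of the copies Hist2h2aa1 and Hist2h3c1 (chr3:96245497 and 96246685). Hist2h2be met Hist2h3c2 at 15 kb with 83 (66.1 to 103) and Hist2h2bb at 45 kb with 69 (53.7 to 87.3), the median at 45 kb being 40. These pairs were picked for their high counts; of all 25 within-group contacts, 14 lay above the median of listed promoter pairs at their distance, 9 below and 2 at it, as for Hist1h1b with Hist1h2bp at 10 kb, 48 against 88. On chromosome 13, Hist1h3c met the bin of Hist1h2ab and Hist1h3b at 10 kb with 99 (80.5 to 121) and Hist1h3d met Hist1h2be at 10 kb with 90 (72.4 to 111), where the median was 88. The bins of both Hist1h2be starts met at 35 kb with 65 (50.2 to 82.8) against 47. The 25 counts had a median of 35 and ranged from 10 to 117.

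Contacts also linked the first and the second chromosome 13 groups, 1490 to 2215 kb apart. Of 200 bin pairs between them 4 were listed, 2.00% (0.780 to 5.03), where the distance-weighted share over accessible promoters was 0.0845%, or 0.169 pairs. By percent of all 25486 promoter pairs at these distances, 0.0981% were listed, 25 pairs that include these 4. The bin of Hist1h2ag, Hist1h2bj and Hist1h4i met Hist1h3g at 1495 kb with 10 contacts (4.80 to 18.4) and Hist1h4f at 1510 kb with 7 (2.81 to 14.4). Hist1h2bk met Hist1h2be at 1550 kb with 9 (4.12 to 17.1), and the bin of Hist1h2ak, Hist1h2bn and Hist1h4k met Hist1h3c at 1990 kb with 8 (3.45 to 15.8). The counts are low, so only 1 of the 4 pairs was listed at a q of 0.001 or less (0.500%, against 0.0234%). The histone share stayed above the background under every rule tried for these groups; 100 kb as the limit between groups, which also splits the main groups, gave 2.55% against 1.33%. Other pairs of groups lay on different chromosomes or too far apart for the list.

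**Figure D3:**
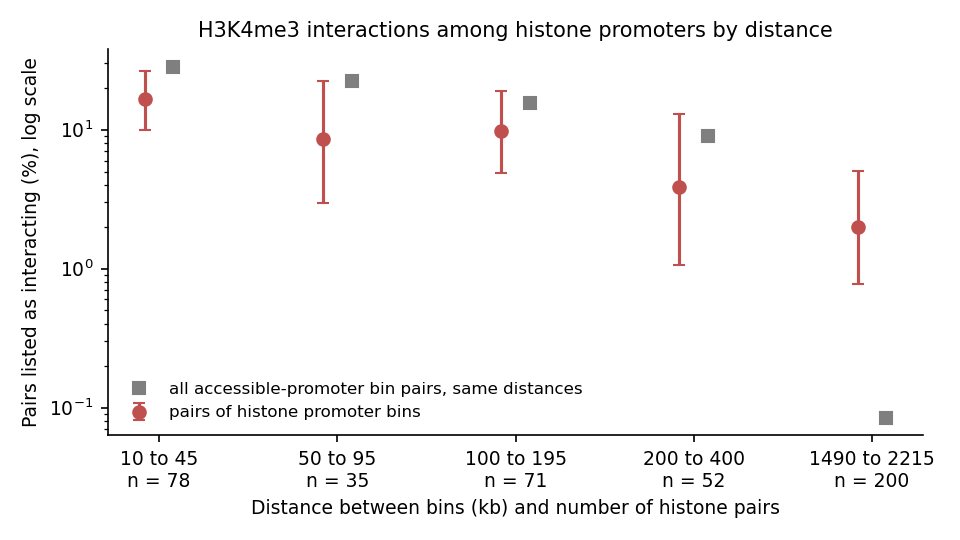
Percent of bin pairs listed as interacting (log scale) by distance in kb, for histone promoter bins (circles, 95% Wilson intervals) and all accessible-promoter bins at the same distances (squares). Histone pairs lie below the others up to 400 kb, with 16.7% against 28.4% in the nearest class (an order that turns over all within-group pairs when neighbouring bins are counted), and above them beyond 1 Mb, with 2.00% against 0.0845%.

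In all, 20 interactions over 1 Mb touched a histone promoter bin, 19 of them on chromosome 13. Both ends were histone promoters in 4, the other end lay within 10 kb of another histone promoter bin in 4, and it lay farther away in 11 and on chromosome 6 in the last, where Hist4h4 met Lockd at 1880 kb. The highest counts came from the bin of Hist1h2ag, Hist1h2bj and Hist1h4i. It met an accessible region in the bin that begins at base 23520000, 10 kb before the Hist1h4h promoter bin, with 19 contacts at 1480 kb, and another at 1385 kb with 18.

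Histone bins also met other genes. C230035I16Rik met the bin of Hist1h2af, Hist1h3g and Hist1h4h at 100 kb with 100 contacts (81.4 to 122), and Rnf187 met Hist3h2bb-ps at 15 kb with 102 (83.2 to 124). Bola1 and Sf3b4, a splicing factor subunit, met Hist2h2ab at 20 and 45 kb with 80 and 71 contacts, and Hfe met Hist1h3c at 30 kb with 71. Vps45 met 3 chromosome 3 bins at 160 to 210 kb with at most 27 contacts, and Zkscan3 met 2 bins of the first group with at most 12.

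The distal elements named for histone genes differed in contacts. An intergenic cluster named for Hist1h4h, 5 regions in the bin from 23515000 to 23520000, had 14 interactions and none to a histone promoter, its strongest being 215 contacts (187 to 246) with C230035I16Rik at 85 kb. The Fli1 and Ikzf1 element 5937 bases past the Hist1h2bl start (chr13:21709964-21710449) lay in a bin with 12 interactions, 1 of them to Hist1h4j with 31 contacts. The bin of the strong Fli1 peak past Hist1h2bj had 7, 1 of them to Hist1h3c. The bin of the Fli1 and Ikzf1 element in the Hist1h2be intron had 0 listed interactions, although it scored highest for Ikzf1 and second for Fli1 among members.

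In the tables that compare genotypes, values are tags per region scaled to 10000000 tags per library, called tags below. These regions lay near genes that the authors had chosen as enriched in Wt, so members are present through that choice and lower knockout signal over the tables is not independent evidence. Library totals ran from 24557525 to 196071042 tags. Chromatin marks of Wt and Ebf1-KO covered 3642 regions, 41 of them of 27 histone genes, 32 near a start. In such bulk libraries a higher signal per cell and more cells carrying it cannot be told apart, and the share of dividing cells in each culture was not measured here.

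RNA polymerase II (PolII) at histone regions was higher in Ebf1-KO, against the direction of the table. Its median was 59.3 tags in Wt and 119 in Ebf1-KO, a median log2 ratio (Ebf1-KO over Wt, of value plus 1) of 0.73 against -0.67 over all regions, and 37 of 41 were higher, against 1029 of 3642. The ratio was at least 2-fold up in 8 of 41 (7.03% of all regions) and down in 1 (39.7%). Near starts the medians were 0.79 for 32 histone regions and -0.52 for 1057 regions in all.

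The highest PolII value of the table in either genotype lay at histone genes. The region at chr13:23620719-23622700, named for Hist1h2be, also holds the RefSeq start of the linker histone gene Hist1h1e, and it had 282 tags in Wt (exact Poisson interval 262 to 303) and 488 in Ebf1-KO (463 to 514). Among the other H1 genes, Hist1h1b had 209 (191 to 227) and 338 (317 to 360), and Hist1h1c had 242 (223 to 261) and 351 (329 to 373). The intervals of the 2 libraries did not overlap in any of these, which bears on counting error alone, since each genotype is a single PolII library.

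The core histone genes showed the same order of the genotypes. The region shared by the divergent Hist1h2ak and Hist1h2bn had 181 (165 to 198) in Wt and 267 (248 to 286) in Ebf1-KO, and Hist1h2bb had 143 (129 to 158) and 299.95 (280 to 321). Hist1h2bh had the largest ratio of the members, 67.5 (57.8 to 78.4) against 169 (154 to 184), a log2 ratio of 1.31. Of the H3 genes, Hist1h3e had 60.9 (51.7 to 71.2) and 134 (121 to 148), and of the H4 genes, Hist1h4c had 99.1 (87.3 to 112) and 173 (159 to 189). On chromosome 3, Hist2h4 had 65.2 (55.7 to 75.8) and 119 (107 to 132). The 4 regions lower in Ebf1-KO were 3 of the intergenic elements named for Hist1h4h and a smaller region upstream of the Hist1h3e start (chr13:23563068-23563483).

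Per kb of region, histone regions held a median of 67.5 PolII tags in Wt and 134 in Ebf1-KO, where all regions held 19.8 and 9.86. Of the 37 regions with the most PolII per kb, the top 1%, 5 were histone regions in Wt and 24 in Ebf1-KO. Of the 41 members, 20 stood in the top 5% in Wt and 33 in Ebf1-KO. The plot of both genotypes shows histone promoters at the upper edge of the cloud.

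**Figure D4:**
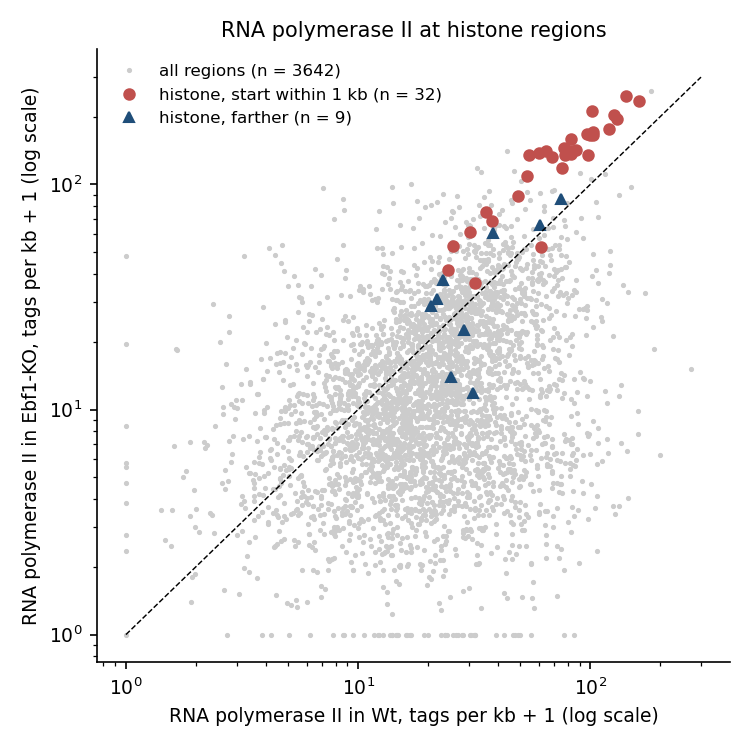
RNA polymerase II in Wt (horizontal) and Ebf1-KO (vertical), in tags per kb plus 1 on log scales, for all 3642 regions (grey), 32 histone regions near a start (circles) and 9 farther away (triangles); the dashed line marks equal values. Of the 32 near a start, 31 lie above the line.

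H3K4me3, the mark of active promoters, followed the same direction. Its median at histone regions was 39.9 tags in Wt and 75.2 in Ebf1-KO, a median log2 ratio of 1.02 against 0.02 over all regions. It was higher in 40 of 41, against 1850 of 3642, at least 2-fold in 21 (15.4% of all regions) and at least 2-fold lower in 0 (25.2%). Near starts the medians were 1.00 for histone regions and 0.40 for all. Hist1h1c had 76.2 tags in Wt and 193 in Ebf1-KO, Hist1h4c 39.9 and 126, and Hist2h4 95.9 and 230. Unlike PolII, H3K4me3 per kb at histone regions stood at a median percentile of 67.8 in Wt and 79.5 in Ebf1-KO, and 0 of 41 were in the top 1% in either. Among regions near a start, the median percentile in Wt was 68.7 for histone regions and 82.1 for all. In Ebf1-KO it was 80.4 and 81.5, so histone promoters stood below other promoters in Wt and about level in Ebf1-KO.

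The other active marks were also higher in Ebf1-KO at most histone regions. H3K4me2 had a median log2 ratio of 0.74 against -0.18, with 40 of 41 regions higher against 1621 of 3642, 2 at least 2-fold (7.58%) and 0 at least 2-fold lower (30.3%). Near starts, however, H3K4me2 was higher in Ebf1-KO over the whole table too, with medians of 0.74 for histone regions and 0.47 for all, 747 of 1057 being higher. H3K27ac, a mark of active promoters and enhancers, had 0.25 against -0.70 (0.25 and -0.59 near starts), with 34 of 41 higher against 647 of 3642, 1 at least 2-fold (1.15%) and 0 at least 2-fold lower (37.4%). Scaling by TMM factors, which centres all regions near 0, gave medians of 1.44 for PolII, 0.98 for H3K27ac, 0.94 for H3K4me3 and 0.89 for H3K4me2, so the order of the marks depends on the scaling. The repressive mark H3K27me3 was near 0 at histone regions, at most 1.43 tags in either genotype, with a median log2 ratio of -0.19 and 2 of 41 at least 2-fold lower (4.67%).

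**Figure D5:**
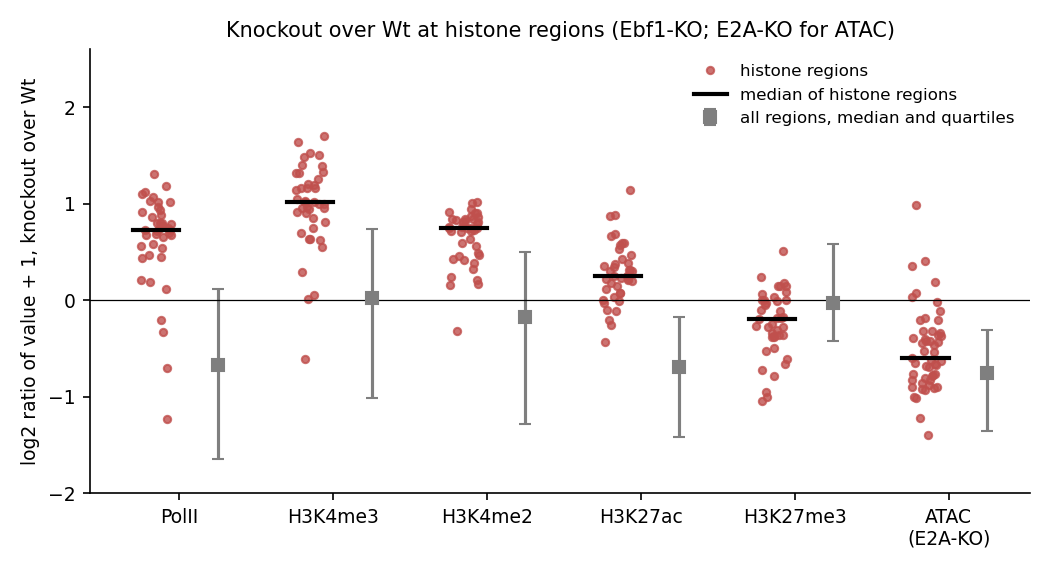
log2 ratio of value plus 1, Ebf1-KO over Wt for the marks and E2A-KO over Wt for ATAC, at each histone region (points, with their median as a bar) beside the median and quartiles of all regions (squares). Histone medians are 0.73 for PolII and 1.02 for H3K4me3, where all regions have -0.67 and 0.02, while for ATAC they are -0.60 and -0.76, or 0.23 and 0.02 with TMM factors.

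On the deposited scale, accessibility in E2A-KO cells was lower at histone regions, as over the whole table. The accessibility table held 4829 regions, 51 of them of 28 histone genes, in a Wt column whose header names a pool of 6 libraries, although 3 Wt samples were labelled, and an E2A-KO column pooling 3. The median at histone regions was 27.3 tags in Wt and 18.9 in E2A-KO, a median log2 ratio of -0.60 against -0.76 over all regions. It was lower in 45 of 51, about the share of all regions (4218 of 4829), at least 2-fold in 4 (37.6%) and at least 2-fold higher in 0 (1.01%). TMM factors, which centre this table of Wt-enriched genes near 0, shift all regions and so turn the sign, to 0.23 for histone regions and 0.02 for all. Histone regions stood slightly above all regions on both scales, and no direction of their own can be read from the sign.

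The histone region with the most tags, over Hist1h1c, had 130 tags in Wt (124 to 136) and 67.6 in E2A-KO (62.2 to 73.4). Hist1h2bb had 101 (96.2 to 106) and 59.1 (54.1 to 64.5), and the main Hist2h4 region 94.0 (89.2 to 99.0) and 49.4 (44.8 to 54.4). The lowest ratio of the members, -1.40, was at the Fli1 and Ikzf1 element in the Hist1h2be intron (chr13:23592985-23593753), with 35.5 (32.6 to 38.6) and 12.8 (10.5 to 15.5) tags. With TMM factors, a setting added for single regions after the data were seen, it was -0.54 against 0.02 over all regions.

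Of all 1172 Ebf1-bound regions, 2 were named for histone genes, both among the 916 that are open in Ebf1-KO cells. With so few, their absence from the 256 closed ones cannot be read as a difference. Ebf1 binding is that of the authors' list for the 230-238 line. In the Hist1h2be intron element, BRG1, an ATPase of chromatin remodelling, had 12.5 tags in Wt (9.66 to 15.9) and 14.7 in Ebf1-KO (11.4 to 18.5), intervals that overlap. PolII there had 28.5 (22.3 to 35.8) and 46.2 (38.7 to 54.6). During Ebf1ER activation its accessibility was 21.1 tags at 0 h (17.2 to 25.7), 28.8 at 6 h (23.4 to 35.0), 35.5 at 24 h (29.7 to 42.2) and 31.1 at 72 h (25.5 to 37.6). The log2 ratios to 0 h were 0.43, 0.72 and 0.54, where the medians of all 916 regions were 0.26, 0.47 and 0.49. With TMM factors, which shift all regions down, they were 0.15, 0.18 and -0.03 for the element and -0.01, -0.05 and -0.06 for all regions, so the sign at 72 h turned while the element stood above the median on both scales.

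The intergenic element named for Hist1h4h (chr13:23517523-23518501) had no such course, with 20.9, 22.2, 17.8 and 24.5 tags at 0, 6, 24 and 72 h and overlapping intervals. The log2 ratios to 0 h were 0.08, -0.23 and 0.22, against medians of 0.26, 0.47 and 0.49 over the 916 regions. With TMM factors they were -0.20, -0.76 and -0.35, against -0.01, -0.05 and -0.06. The element thus stood below the median on both scales. Its H3K4me3 was 82.5 tags in Wt and 206 in Ebf1-KO, its PolII 26.9 (20.9 to 34.1) and 21.2 (16.3 to 27.2), and its BRG1 30.3 (25.8 to 35.3) and 40.5 (35.0 to 46.6). The intervals of the genotypes overlapped for PolII and for BRG1 at this element, whose contacts with C230035I16Rik are described above.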

How the data were processed

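The deposited lists and tables were used as the authors made them. Per the submitters' processing notes, the build was mm10 and the tools included HiC-Pro 2.11.1, MACS2, HOMER 4.10 and Bowtie2 2.3.5, without saying which step used which tool. The accessible regions, Fli1 peaks and Ikzf1 peaks carry HOMER annotations of the nearest start, per the file headers, and the peak score is the authors' own. The PLAC-seq list gives, as deposited, the contact counts of paired 5 kb bins with a q-value corrected for bias, near contacts being merged. Signal values in the region tables are tags that the authors scaled to 10000000 per library without dividing by region length, per the file headers, and multiplying back by the library total gave whole tags, or steps of 0.5, within 0.1 tag for 100% of values.

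From these, shares with 95% Wilson intervals, medians, exact Poisson intervals and log2 ratios of value plus 1 were computed, and ratios of at least 2-fold were counted. Each interaction background is the share of accessible-promoter bin pairs at the same distances. RefSeq promoters (GRCm38.p6) were matched by older symbol. The tools were Python 3.11.15, pandas 2.3.3, NumPy 2.4.6, SciPy 1.17.1, Matplotlib 3.10.9, R 4.3.3 and edgeR 4.0.16 (TMM factors only). The overlap of regions with peaks, the grouping at gaps and the log2 ratios were tested on simulated data. No test across samples was made, since each group was 1 list or column. The accessibility table holds 2 columns for which no sample is labelled here, and they were not used.

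The members, the gene lists and the comparisons were chosen with earlier results of these data known. Every member may be named; values are given in full for the 4 highest Fli1 and Ikzf1 scores, the 6 bins with most interactions, the 6 strongest contacts between histone bins, all contacts between groups, and members of the region tables chosen within each histone class.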

Additional observations from a re-analysis of the deposited data

How the results depend on the processing

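Of 77 alternative values of 25 results, 53 stayed within the interval of the reported value, or for single regions within 0.1 on the log2 scale, 20 moved farther and 4 changed sign. These counts concern the value itself. Its order against the background turned in other cases: within groups from 10.6% against 19.4% to 56.4% against 45.7% with neighbouring bins, 41.1% against 36.0% inside merged contacts and 10.6% against 6.52% with all bins that hold an interaction end, and per bin from 2.5 against 4 to 9.0 against 7. No paired analysis was possible because the deposited tables pool the labelled replicates or hold a single library, so none could be left out or used as a block. The share of accessible histone promoters was 74.5% with a 500 bp window and 68.6% with all RefSeq histone genes as the denominator. The median of interactions per histone bin was 1.0 at a q of 0.001 and 9.0 with neighbouring bins. Between the chromosome 13 groups 0.500% of pairs were listed at a q of 0.001 and 9.0% with neighbouring bins. TATAA was in 66.1% and CGGAAG in 11.3% of histone promoters. With TMM factors the median ratios were 0.89 for H3K4me2, 0.98 for H3K27ac and 1.44 for PolII, and accessibility in E2A-KO changed sign, from -0.60 to 0.23, as all regions shifted alike. Also under TMM the ratio to 0 h changed sign at the Hist1h2be element at 72 h (-0.032) and at the Hist1h4h element at 6 and 72 h (-0.20 and -0.35). At 24 h the Hist1h4h element moved from -0.23 to -0.76. H3K27me3 was -0.95 with a floor of 10 tags, which left 1 region. The shares of Fli1 and Ikzf1 and the peak scores stayed within their intervals under the alternatives tried. Counts of 7 to 10 limit each contact between groups.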
